A study of Homo sapiens with 12 samples.

Results

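The genes described here are 47 genes of mitosis and the G2/M transition, chosen by name from the rows of a count table of 43557 genes. All 47 were found in the table, and all 47 passed the filter on low counts that left 23070 genes for testing. The study sequenced poly(A) RNA of T24 and RT4, both human bladder cancer lines, in 4 groups of 3 libraries, 12 in all. The groups are T24 shNC and RT4 shNC, labelled as untreated, and T24 shFTO and RT4 shFTO, labelled as knockdown of FTO, and the genotype entry of every library reads homo. FTO is a demethylase that removes N6-methyladenosine from RNA. T24 was derived from a poorly differentiated urothelial tumour, RT4 from a well-differentiated papillary one. The labels do not say whether a knockdown group was 1 clone or a pool, nor what the control construct targets. Nor do they say that replicates were separate cultures, so the spread behind each p-value may be technical.

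Entry into mitosis is driven by the kinase CDK1 bound to B-type cyclins, and exit by the anaphase-promoting complex (APC/C), which marks cyclin B and securin for destruction. Between entry and exit, kinesin motors and the kinetochores align the chromosomes, and the spindle checkpoint holds anaphase back until every kinetochore is attached. Most of these genes are transcribed late in the cell cycle under the MuvB complex with B-MYB and FOXM1, through promoter elements called the cell cycle genes homology region (CHR) and CCAAT boxes. In dividing cultures their mRNA levels follow the share of cells in late cycle. In bulk RNA, fewer cells in that phase and less mRNA per cell cannot be told apart.

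Promoters of 6 genes are shown because they carry letters that match these elements and belong to genes on which the results turn. MKI67 and TOP2A had 2 of the 4 largest rises in RT4, CDK1 and PLK1 are the central mitotic kinases, and CDC25B and HMMR went in opposite directions in T24 and RT4. The sequences are from RefSeq on GRCh38.p14, from 250 bases before to 50 bases after a listed start, written 5′ to 3′ on the gene's strand. MKI67 is read from the minus strand at chr10:128126374-128126673, TOP2A from the minus strand at chr17:40417847-40418146 and CDK1 from the plus strand at chr10:60778081-60778380. PLK1 lies on the plus strand at chr16:23678639-23678938, CDC25B on the plus strand at chr20:3796060-3796359 and HMMR on the plus strand at chr5:163460382-163460681. Capitals mark TTTGAA and TTCGAA, the letters of the CHR core, and CCAAT, each on either strand, so that TTCAAA and ATTGG are also in capitals. In MKI67 the second TTTGAA overlaps an ATTGG, and in HMMR a CCAAT overlaps an ATTGG. The CDK1 TTTGAA begins at -161 from the listed start, and the TOP2A TTTGAA and TTCAAA at -194 and -151. CDK1 and CDC25B have further listed starts that are not shown. At the further CDK1 start, TTTGAA or TTCAAA begins at -69, -13 and 10.
MKI67: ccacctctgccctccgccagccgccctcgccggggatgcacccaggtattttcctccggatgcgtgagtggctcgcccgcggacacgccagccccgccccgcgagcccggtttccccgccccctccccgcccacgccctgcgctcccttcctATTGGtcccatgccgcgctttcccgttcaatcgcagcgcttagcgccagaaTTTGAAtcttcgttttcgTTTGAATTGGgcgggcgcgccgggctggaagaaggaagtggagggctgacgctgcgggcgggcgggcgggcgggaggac
TOP2A: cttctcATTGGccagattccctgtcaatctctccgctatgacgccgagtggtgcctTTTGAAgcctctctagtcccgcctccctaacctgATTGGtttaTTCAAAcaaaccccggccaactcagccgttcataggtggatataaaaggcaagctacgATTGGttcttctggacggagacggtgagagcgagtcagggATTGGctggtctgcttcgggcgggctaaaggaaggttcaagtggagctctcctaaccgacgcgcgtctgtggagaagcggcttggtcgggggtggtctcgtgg
CDK1: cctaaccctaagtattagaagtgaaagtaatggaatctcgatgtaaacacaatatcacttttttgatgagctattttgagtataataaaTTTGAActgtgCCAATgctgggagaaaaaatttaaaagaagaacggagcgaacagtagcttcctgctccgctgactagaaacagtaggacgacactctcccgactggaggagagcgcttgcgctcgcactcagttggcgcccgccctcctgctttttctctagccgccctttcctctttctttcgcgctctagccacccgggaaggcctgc
PLK1: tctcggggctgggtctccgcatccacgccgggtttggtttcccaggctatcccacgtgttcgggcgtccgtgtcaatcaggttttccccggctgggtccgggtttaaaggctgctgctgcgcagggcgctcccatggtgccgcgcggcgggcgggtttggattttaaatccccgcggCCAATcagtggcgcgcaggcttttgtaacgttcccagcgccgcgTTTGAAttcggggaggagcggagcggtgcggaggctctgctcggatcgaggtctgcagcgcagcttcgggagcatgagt
CDC25B: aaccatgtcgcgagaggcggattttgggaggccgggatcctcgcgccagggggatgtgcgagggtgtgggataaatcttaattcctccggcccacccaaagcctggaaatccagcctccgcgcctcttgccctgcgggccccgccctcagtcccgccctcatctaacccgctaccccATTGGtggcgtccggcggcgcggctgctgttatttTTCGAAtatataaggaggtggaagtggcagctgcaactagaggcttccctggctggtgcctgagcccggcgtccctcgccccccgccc
HMMR: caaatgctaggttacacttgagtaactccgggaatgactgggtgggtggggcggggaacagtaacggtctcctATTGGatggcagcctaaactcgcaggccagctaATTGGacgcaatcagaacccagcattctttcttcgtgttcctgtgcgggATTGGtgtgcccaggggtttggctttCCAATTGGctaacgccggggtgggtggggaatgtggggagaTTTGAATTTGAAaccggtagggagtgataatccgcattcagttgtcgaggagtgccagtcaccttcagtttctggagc

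RefSeq promoters were matched by symbol for 40 of the 47 genes, with 53 listed starts. TTTGAA or TTCGAA stood in at least 1 listed promoter of 33 of the 40 genes (82.5%), against 19.5% of 27305 genes with promoters of the same length. CCAAT was found in 32 of the 40 (80%), against 39.7% of all genes, and both kinds of element in 26 (65%), against 7.85%. In 19 of the 40 genes (47.5%) a TTTGAA or TTCGAA began within the 50 bases before the start, against 3.43% of all genes. Anywhere in the promoter, TTTGAA or TTCGAA was found in 22 of 26 matched genes that rose in T24 and in 6 of 8 that fell there. Within the 50 bases before the start it was found in 11 of the 26 and 5 of the 8, and CCAAT in 20 of the 26 and 8 of the 8. None of these differences was tested. A match of letters is a description of the sequence and not evidence of binding. UBE2C, TPX2, BIRC5, BUB3, FOXM1, TTK and AURKA were not among the matched genes.

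Levels below are CPM (counts relative to library size) after TMM scaling, which sets libraries to a common scale. Total counts per library ranged from 31291047 to 102798895, the deepest being RT4 shNC replicates 2 and 3. The comparison of shFTO with shNC in each line used 1 edgeR quasi-likelihood fit over all 12 libraries. A gene was called at a Benjamini-Hochberg (BH) adjusted p under 0.05 over 23070 genes, and "rose" or "fell" is used of called genes only. FTO, the targeted gene, fell in T24, from 35.2 ± 1.25 to 25.5 ± 1.09 CPM (SD, n = 3), and rose in RT4, from 46.2 ± 1.01 to 68.9 ± 3.29 CPM. Because FTO goes against the label in RT4, directions there describe labels and not a known loss of FTO. In T24 the level of FTO was 0.725-fold that of shNC, where 40.8% of all tested genes fell. Whether that fall came from the knockdown was not tested. The groups also differed in cell type markers. Of 14 urothelial markers, 2 in T24 shNC, 3 in T24 shFTO, 0 in RT4 shNC and 3 in RT4 shFTO reached a mean of 10 CPM. None of the listed uroplakins, proteins of the bladder surface, did so in any group. UPK3A and UPK1B had 0 counts in every group but T24 shFTO, with means of 0.91 and 1.3 CPM there. UPK3B and UPK2 went the other way, at 7.51 and 1.23 CPM in T24 shNC and 0.0863 and 0.0452 in T24 shFTO. UPK1A stayed below 1 CPM in every group. Summed urothelial levels were 1240 to 1310 CPM in T24 shNC, 220 to 226 in T24 shFTO, 19.9 to 23.2 in RT4 shNC and 183 to 190 in RT4 shFTO. KRT7, a keratin, made up most of the sum in T24 shNC (mean 1208 CPM) and RT4 shFTO (143). It was 0.988 CPM in T24 shFTO. FOXA1, PPARG and GATA3 were instead higher in T24 shFTO (141, 64.2 and 12.7 CPM) than in T24 shNC (9.62, 38.0 and 0.175). The sums are thus no measure of these markers as a set. All 12 hepatocyte markers reached 10 CPM in T24 shFTO, summing to 25000 to 26100 CPM. The sums elsewhere were 6.01 to 7.17 in T24 shNC, 7.18 to 8.77 in RT4 shNC and 35.8 to 39.2 in RT4 shFTO. Of 10 fibroblast markers, 8 reached 10 CPM in RT4 shFTO, summing to 9010 to 9400 CPM. The other sums were 1.40 to 1.81 in RT4 shNC, 24.7 to 27.1 in T24 shFTO and 1030 to 1070 in T24 shNC. Of the leukocyte and endothelial markers, CD68 in both RT4 groups was the only gene at 10 CPM or more. The mitochondrially encoded share of each library lay between 7.72% and 8.06% in T24 shFTO, and between 5.31% and 5.66% in T24 shNC. In RT4 it was 6.96% to 7.45% in shFTO and 4.71% to 5.69% in shNC. ALB, albumin, was 0.0844 ± 0.0254 CPM in T24 shNC and 10700 ± 414.5 in T24 shFTO, and COL1A2, a collagen I chain, was 0.0195 ± 0.0184 CPM in RT4 shNC and 6499 ± 147 in RT4 shFTO (SD, n = 3). Whether the groups labelled as one line are the same kind of cell was not tested, nor was the part of the mitochondrial share in the results below. A change within a line and a difference between cell types cannot be told apart, and "rose" and "fell" stand for higher and lower in the libraries labelled shFTO.

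The mitosis and G2/M genes rose as a whole in RT4 and split in T24. Counts by role below are to be read against the shares of all tested genes given in this paragraph. In RT4 all 47 rose and 0 fell, where 38.6% of all tested genes rose and 40% fell, 78.6% in all. The median log2 change of the 47 was 1.12 (2.17-fold) against 0.00 for all tested genes, the range was 0.29 to 3.63, and 26 rose at least 2-fold (23.5% of all genes did). In T24, 31 rose, 9 fell and 7 were not called, where 37.2% of all tested genes rose and 40.8% fell, 78% in all. The median log2 change there was 0.37 (1.29-fold) against -0.05 for all genes, the range was -1.35 to 1.80, and 9 rose and 1 fell at least 2-fold (21.3% and 27.5% of all genes did). Values of shFTO and shNC libraries did not overlap for 47 genes in RT4 and 40 in T24, against 79.9% and 79.6% of all tested genes. Within batches 1, 2 and 3, which the labels number and which hold 1 library of each group, all 47 genes were higher in RT4 shFTO each time, and 37, 33 and 35 were higher in T24 shFTO. These counts reuse the libraries behind the calls and are no separate support. The matching share of all tested genes was not counted.

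The T24 and RT4 comparisons share no library. Both called 31 of the 47 genes up (66%), where 14% of all tested genes rose in both. As all 47 rose in RT4, this count and the next restate the T24 calls. In T24 alone, 37.2% of all tested genes rose and 40.8% fell. The 9 genes that fell in T24 all rose in RT4, 19.1% of the list, where 33.9% of all genes moved in opposite directions. These 9 were CDK1, CDC25B, AURKA, INCENP, KIF11, KIF20A, KIF23, HMMR and PTTG1. The 7 genes not called in T24 were CCNB1, BIRC5, CDCA8, CENPA, NDC80, NUF2 and NUSAP1. The change itself differed between the lines for 44 of the 47 genes by the edgeR test of the difference, 38 with the smaller or more negative change in T24 and 6 with the larger change in T24, against 38.7% and 36.3% of all tested genes, 75% in all. The 6 were NCAPG, CCNA2, TPX2, ECT2, UBE2C and ESPL1.

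**Figure D1:**
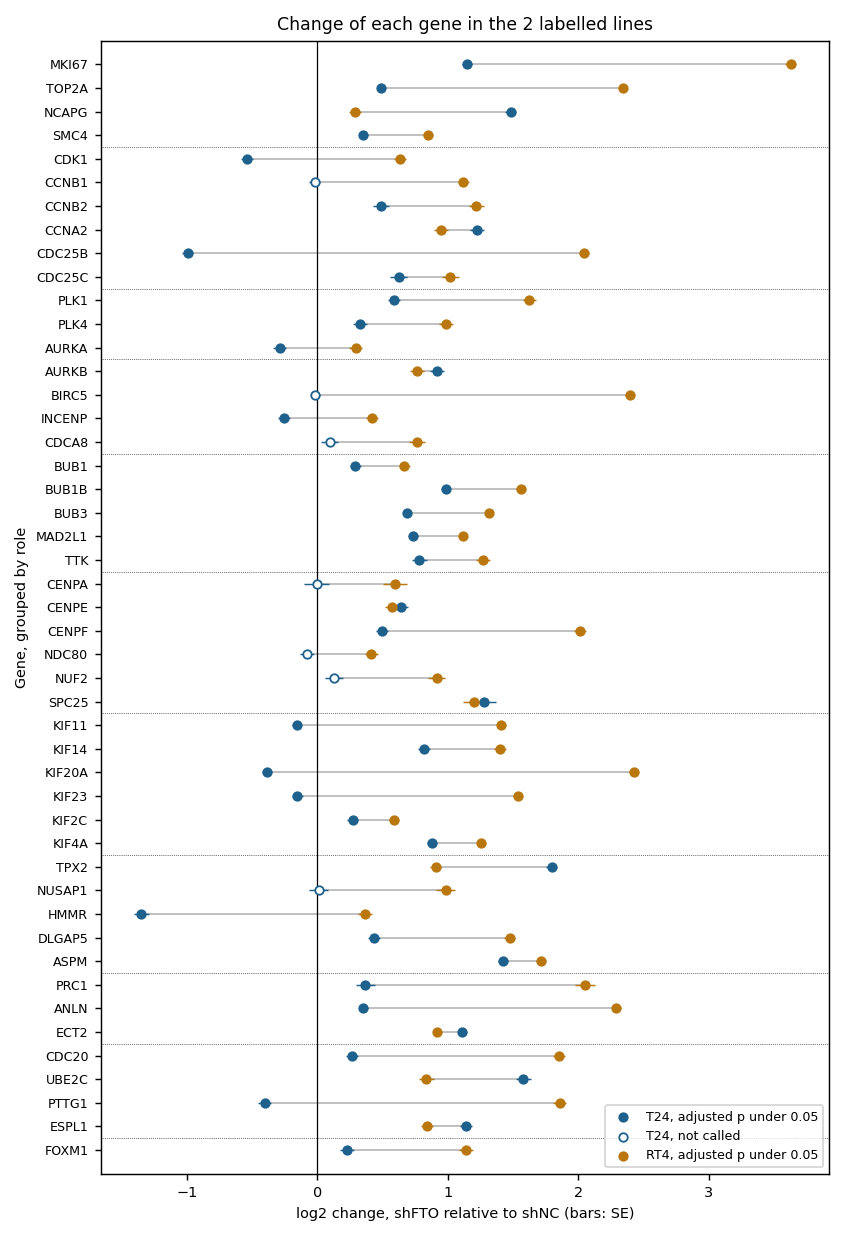
log2 change of each gene in libraries labelled shFTO relative to shNC, in T24 (blue) and RT4 (brown). Horizontal bars are SEs derived from the edgeR log2 change and its F statistic, and genes are grouped by role from top to bottom. Filled points passed an adjusted p of 0.05 and open points did not. All 47 RT4 points lie right of 0, while 9 filled T24 points lie left of it.

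RT4 shNC had the lowest mean for 37 of the 47 genes and the highest for 0. RT4 shFTO had the highest mean for 25 genes, T24 shFTO for 20 and T24 shNC for 2, which were CDK1 and INCENP. The summed level of the 47 genes was 2849 ± 75.9 CPM in RT4 shNC, 4811 ± 66.3 in T24 shNC, 6780 ± 103 in T24 shFTO and 8036 ± 26.9 in RT4 shFTO (SD, n = 3). The summed levels of the 4 groups did not overlap. The sum is weighted towards abundant genes such as TOP2A and MKI67. How often each group was highest or lowest over all tested genes was not counted.

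**Figure D2:**
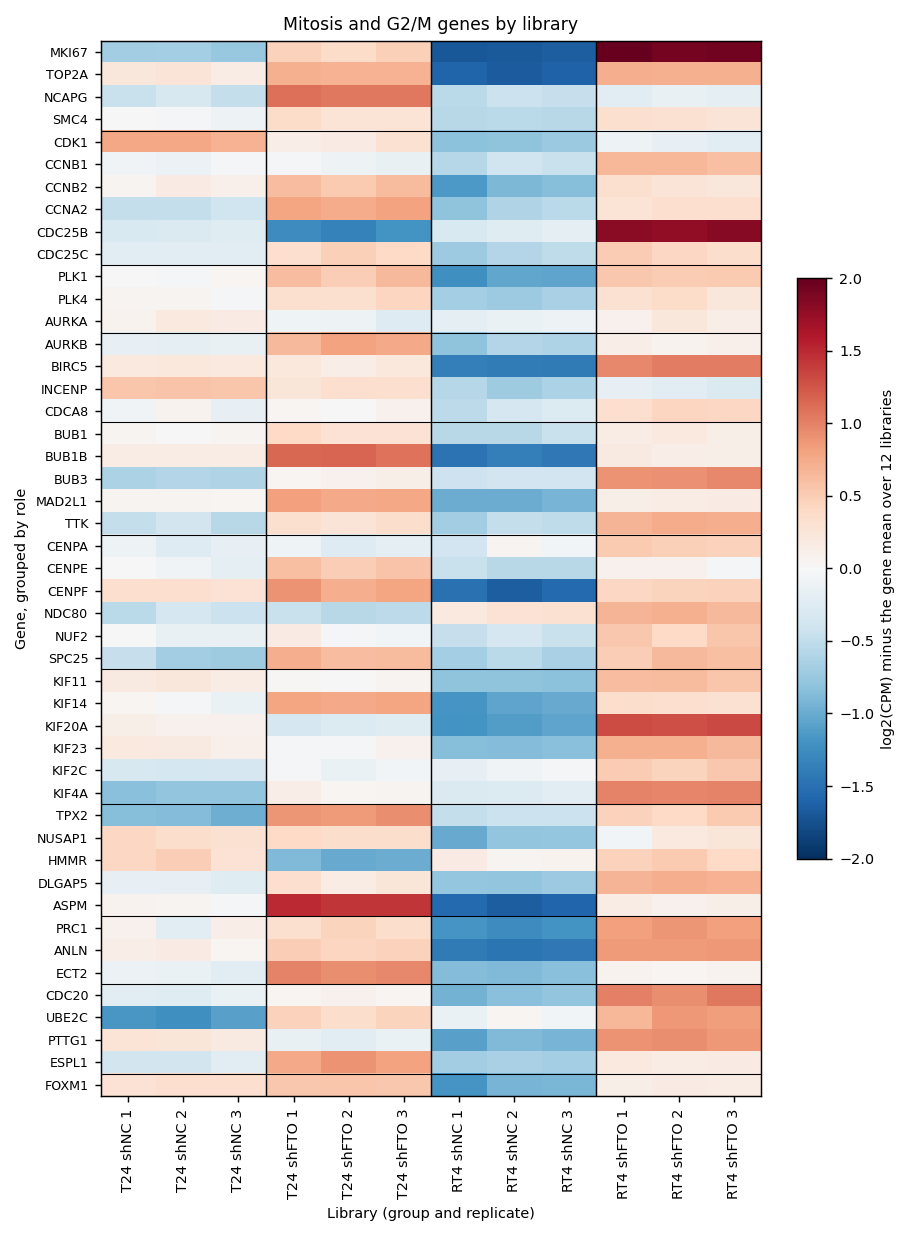
Heat map of the 47 genes (rows, grouped by role) in the 12 libraries (columns), as log2 CPM minus the gene's mean over all libraries. The 3 RT4 shNC columns are blue for most genes, with the lowest mean in 37 of 47, and the strongest reds include MKI67 and CDC25B in RT4 shFTO and ASPM in T24 shFTO.

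Proliferation and chromosome structure genes rose in both lines, 4 of 4 in each. MKI67 encodes Ki-67, which coats mitotic chromosomes and is the common proliferation antigen, and it stood at 144, 146 and 138 CPM in T24 shNC, 320.0, 299.6 and 323 in T24 shFTO, 72.0, 72.9 and 74.2 in RT4 shNC and 946, 879.6 and 889 in RT4 shFTO. No group overlapped another, and RT4 shFTO was far above the rest. The log2 change was 3.63 in RT4 (SE 0.0415, edgeR BH-adjusted p = 6.56e-20), the largest of the 47, and 1.14 in T24 (edgeR BH-adjusted p = 4.62e-14). TOP2A, topoisomerase II alpha, which untangles sister chromatids, was 411, 419 and 387 CPM in T24 shNC, 571, 564 and 569 in T24 shFTO, 116, 111 and 114 in RT4 shNC and 577, 569.6 and 574 in RT4 shFTO. RT4 shNC was lowest, and the shFTO groups of both lines overlapped. Its log2 change was 2.34 in RT4 and 0.49 in T24, with -0.01 between the shFTO groups (edgeR BH-adjusted p = 0.709). NCAPG, a condensin I subunit, was 63.5, 69.0 and 62.1 CPM in T24 shNC, 185, 179.5 and 179 in T24 shFTO, 59.4, 64.1 and 62.5 in RT4 shNC and 73.9, 77.8 and 75.8 in RT4 shFTO. The shNC groups overlapped, and T24 shFTO was highest. NCAPG rose more in T24 (1.48) than in RT4 (0.29), and the difference of 1.19 was the largest of the 6 that favoured T24 (edgeR BH-adjusted p = 1.15e-11). Exons of NCAPG overlap those of LCORL on the opposite strand by 1631 bases, and whether reads were counted by strand is not known. SMC4, the condensin ATPase, was 224, 222 and 211 CPM in T24 shNC, 293, 272 and 273 in T24 shFTO, 154, 155 and 153 in RT4 shNC and 281, 279 and 271 in RT4 shFTO. The shFTO groups of both lines overlapped, and its changes were 0.35 in T24 and 0.85 in RT4. SMC4 exons also overlap TRIM59 and IFT80 on the opposite strand.

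Of CDK1, its cyclins and the CDC25 phosphatases that activate it, 3 of 6 rose and 2 fell in T24, and 6 of 6 rose in RT4. CDK1 was 205, 206 and 194 CPM in T24 shNC, 132, 135 and 148 in T24 shFTO, 67.9, 68.7 and 72.1 in RT4 shNC and 112, 107 and 104 in RT4 shFTO. T24 shNC held the 3 highest values and RT4 shNC the 3 lowest. CDK1 fell by 0.54 on the log2 scale in T24 (edgeR BH-adjusted p = 1.02e-08) and rose by 0.63 in RT4 (edgeR BH-adjusted p = 1.73e-09). CCNB1, cyclin B1, was 151, 147 and 156 CPM in T24 shNC, 155, 148 and 144 in T24 shFTO, 107, 120.5 and 117 in RT4 shNC and 253, 253 and 243 in RT4 shFTO. The T24 groups overlapped (log2 change -0.02, edgeR BH-adjusted p = 0.657), and the RT4 groups stood apart (1.12). CCNB1 was called down in T24 with upper-quartile scaling (-0.13) and on library totals alone (-0.20). CCNA2, cyclin A2, which acts from S phase to early mitosis, was 54.7, 54.8 and 57.4 CPM in T24 shNC, 131, 126 and 133 in T24 shFTO, 43.5, 50.1 and 52.5 in RT4 shNC and 91.2, 96.1 and 95.7 in RT4 shFTO. It rose by 1.22 in T24 and 0.95 in RT4. Reads of CCNA2 could be shared with EXOSC9, which overlaps it by 254 bases on the opposite strand.

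CDC25B, a phosphatase that removes inhibitory phosphates from CDK1 at mitotic entry, had the widest gap between the changes in both lines among the 47. Its levels were 174, 176 and 181 CPM in T24 shNC, 89.3, 83.9 and 93.1 in T24 shFTO, 173, 181 and 188 in RT4 shNC and 746, 733 and 754 in RT4 shFTO. The shNC groups of both lines overlapped, the T24 shFTO libraries stood below them and the RT4 shFTO libraries above. The log2 change was -0.996 in T24 and 2.04 in RT4, a difference of -3.04 (SE 0.0565, edgeR BH-adjusted p = 1.82e-17). CDC25C, its relative, rose in both lines, by 0.62 and 1.02, with means of 17.0 ± 0.125 and 26.3 ± 1.25 CPM in T24 and 13.1 ± 1.01 and 26.6 ± 1.45 in RT4. The second B-type cyclin, CCNB2, also rose in both lines, by 0.49 in T24 and 1.22 in RT4, unlike CCNB1. Exons of CDC25C overlap those of FAM53C on the opposite strand by 293 bases.

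**Figure D3:**
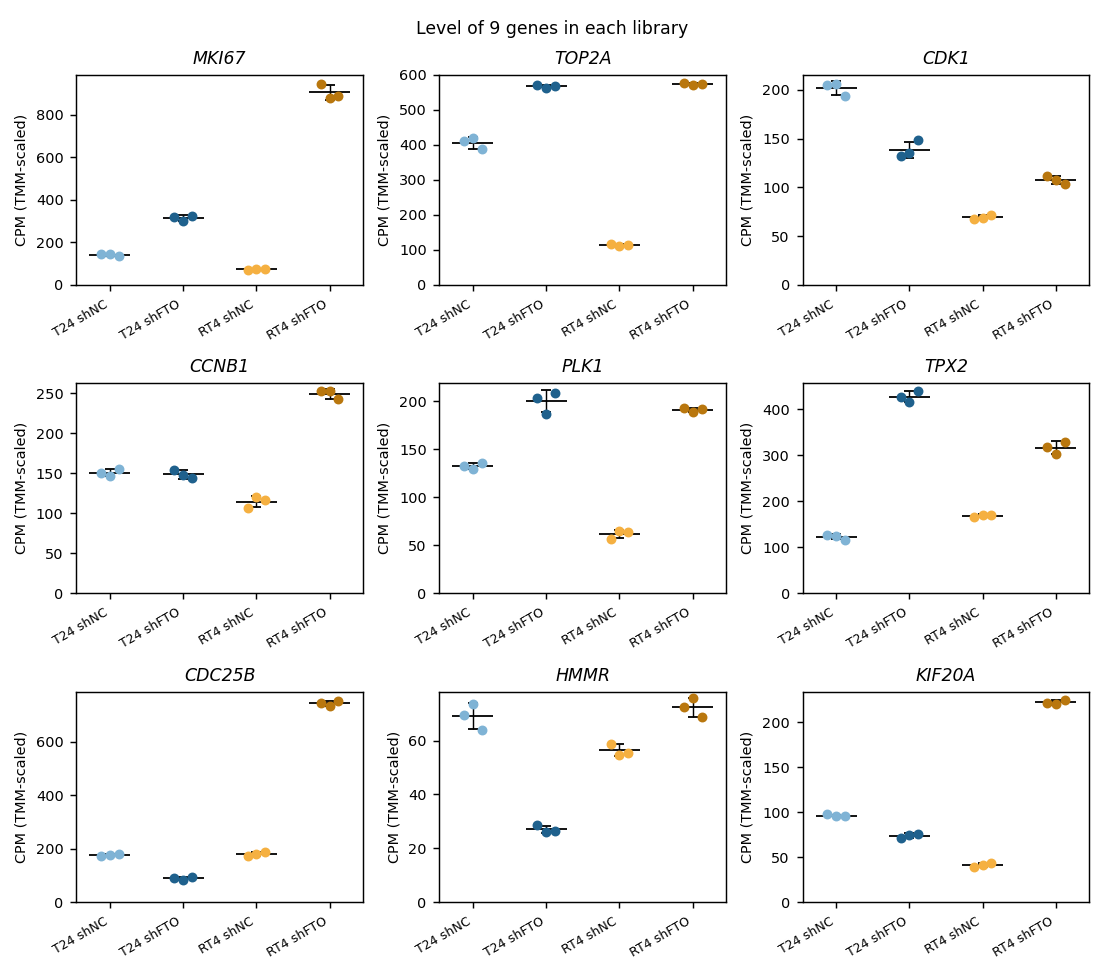
TMM-scaled CPM of 9 genes in each library (points), with the group mean (line) and SD (bar, n = 3), all axes starting at 0. MKI67, TOP2A, PLK1 and TPX2 were higher in shFTO than in shNC in both lines, CDK1, CDC25B, HMMR and KIF20A were lower in T24 shFTO and higher in RT4 shFTO, and the T24 groups overlapped for CCNB1.

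Among the mitotic kinases, 2 rose and 1 fell in T24 and 3 rose in RT4. PLK1, which drives centrosome maturation and mitotic entry, was 133, 129.9 and 136 CPM in T24 shNC, 204, 187 and 209 in T24 shFTO, 57.1, 64.5 and 64.0 in RT4 shNC and 193, 188 and 192 in RT4 shFTO. The difference between its shFTO groups did not pass the test (log2 difference 0.06, edgeR BH-adjusted p = 0.217), and the changes were 0.59 in T24 and 1.62 in RT4. With upper-quartile scaling, library totals alone, or without T24 shFTO replicate 2, PLK1 was called higher in T24 shFTO than in RT4 shFTO (0.14, 0.13 and 0.11). AURKA, the centrosomal Aurora kinase, was 99.7, 109 and 107 CPM in T24 shNC, 89.4, 89.0 and 79.9 in T24 shFTO, 82.9, 87.1 and 89.3 in RT4 shNC and 101, 112 and 104 in RT4 shFTO. T24 shFTO overlapped RT4 shNC, and T24 shNC overlapped RT4 shFTO. AURKA fell in T24 (-0.29) and rose in RT4 (0.29, edgeR BH-adjusted p = 6.57e-05). The RT4 rise of AURKA was lost on library totals alone (0.02, edgeR BH-adjusted p = 0.667). PLK4, which licenses centriole duplication, rose by 0.33 and 0.99.

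The chromosomal passenger complex corrects faulty attachments and steers cytokinesis, and its 4 members did not move together in T24. AURKB, its kinase, was 49.2, 48.0 and 49.6 CPM in T24 shNC, 86.9, 96.8 and 93.5 in T24 shFTO, 31.6, 36.6 and 36.2 in RT4 shNC and 60.6, 58.2 and 59.3 in RT4 shFTO. It rose in both lines, by 0.91 in T24 and 0.76 in RT4, and the difference between the lines did not pass (edgeR BH-adjusted p = 0.0743). That difference was called in 4 alternatives, 2 of them without a single library: T24 shFTO replicate 1 (0.20, edgeR BH-adjusted p = 0.0251) and RT4 shNC replicate 1 (0.22, edgeR BH-adjusted p = 0.00298). BIRC5, survivin, was 81.3, 82.3 and 80.6 CPM in T24 shNC, 82.0, 77.8 and 81.7 in T24 shFTO, 27.5, 26.9 and 26.5 in RT4 shNC and 138, 143 and 144 in RT4 shFTO. Its T24 groups overlapped (-0.02, edgeR BH-adjusted p = 0.709), while RT4 shFTO stood far above RT4 shNC (2.40). BIRC5 was called down in T24 with upper-quartile scaling (-0.12) and on library totals alone (-0.20). INCENP, the scaffold, was 105, 106 and 106 CPM in T24 shNC, 84.6, 90.5 and 90.2 in T24 shFTO, 48.3, 43.7 and 46.2 in RT4 shNC and 64.0, 61.5 and 59.0 in RT4 shFTO. It fell in T24 (-0.26) and rose in RT4 (0.42), and both T24 groups were above both RT4 groups. CDCA8, borealin, had a change of 0.09 in T24 that did not pass (edgeR BH-adjusted p = 0.19) and rose by 0.76 in RT4.

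Spindle checkpoint genes rose in both lines, 5 of 5 in each, and each rose more in RT4. BUB1B, the checkpoint pseudokinase BUBR1, was 107, 107 and 106 CPM in T24 shNC, 212, 216 and 204 in T24 shFTO, 34.8, 37.3 and 35.8 in RT4 shNC and 109, 106 and 104 in RT4 shFTO. T24 shNC and RT4 shFTO libraries stood at like levels, T24 shFTO above and RT4 shNC below. BUB1B rose by 0.98 in T24 and 1.56 in RT4, the largest checkpoint rises. BUB1, the kinase that recruits checkpoint proteins to the kinetochore, was 104, 99.0 and 104 CPM in T24 shNC, 131, 122 and 122 in T24 shFTO, 68.2, 68.0 and 73.1 in RT4 shNC and 111, 114 and 108 in RT4 shFTO, with the smallest rises of the set, 0.29 and 0.67. BUB3, the partner of BUB1 and BUBR1, MAD2L1 (MAD2, which restrains CDC20) and TTK (the kinase MPS1) rose by 0.69, 0.73 and 0.78 in T24. In RT4 the same genes rose by 1.31, 1.11 and 1.27. The test of the difference between lines was passed by all 5 checkpoint genes, with differences from -0.63 to -0.38.

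Centromere and kinetochore genes split in T24, where 3 of 6 rose, 0 fell and 3 were not called, against 6 of 6 that rose in RT4. CENPF, a large farnesylated kinetochore protein, was 289, 289.7 and 279.9 CPM in T24 shNC, 429, 381 and 399 in T24 shFTO, 81.4, 73.2 and 77.9 in RT4 shNC and 306, 313 and 318 in RT4 shFTO. RT4 shNC was lowest by a wide gap, and the rise was 2.01 in RT4 and 0.49 in T24. SPC25, a subunit of the NDC80 complex that binds microtubules, was 8.03, 6.88 and 6.77 CPM in T24 shNC, 18.4, 17.1 and 17.2 in T24 shFTO, 6.91, 7.66 and 7.04 in RT4 shNC and 15.7, 17.4 and 16.8 in RT4 shFTO. Its shNC groups overlapped (log2 difference -0.00) and so did its shFTO groups (0.08), and it rose in T24 (1.28) and RT4 (1.20), with a difference of 0.08 between the lines that did not pass (SE 0.121, edgeR BH-adjusted p = 0.574). NDC80 itself was 29.5, 33.7 and 31.8 CPM in T24 shNC, 31.2, 28.9 and 29.6 in T24 shFTO, 48.6, 52.1 and 52.8 in RT4 shNC and 68.0, 69.8 and 66.9 in RT4 shFTO. The T24 groups overlapped (-0.08, edgeR BH-adjusted p = 0.186), and NDC80 was called down in T24 with upper-quartile scaling (-0.18), on library totals (-0.26) and without T24 shNC replicate 1 (-0.13, edgeR BH-adjusted p = 0.0427). CENPA, the histone H3 variant that marks centromeres, was 15.0, 13.6 and 14.4 CPM in T24 shNC, 15.2, 13.5 and 14.0 in T24 shFTO, 12.3, 16.8 and 15.5 in RT4 shNC and 23.1, 22.4 and 22.1 in RT4 shFTO. RT4 shFTO held the 3 highest values and the other groups overlapped. Its change was -0.01 in T24 (edgeR BH-adjusted p = 0.965) and 0.59 in RT4. Exons of CENPA overlap those of SLC35F6. NUF2, the partner of NDC80, was called up in T24 without T24 shNC replicate 1 (0.17, edgeR BH-adjusted p = 0.0488), against 0.13 with all libraries (edgeR BH-adjusted p = 0.0947). CENPE, a kinetochore kinesin, rose in T24 (0.64) and RT4 (0.57), and the difference did not pass (edgeR BH-adjusted p = 0.38).

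The kinesin motors divided evenly in T24, 3 up and 3 down, where 37.2% of all tested genes rose and 40.8% fell. All 6 rose in RT4, where 38.6% of all tested genes rose. KIF20A, which carries the passenger complex to the central spindle, was 97.4, 95.5 and 95.7 CPM in T24 shNC, 70.8, 74.2 and 76.1 in T24 shFTO, 39.0, 41.4 and 43.0 in RT4 shNC and 221, 220.2 and 225 in RT4 shFTO. It fell in T24 (-0.38) and had the second largest rise of the 47 in RT4 (2.43), a difference of -2.81 (edgeR BH-adjusted p = 4.2e-17). KIF20A exons overlap BRD8 and CDC23 on the opposite strand. KIF11, the Eg5 motor that separates the spindle poles, was 108, 111 and 106 CPM in T24 shNC, 96.7, 95.3 and 99.3 in T24 shFTO, 54.8, 54.5 and 54.0 in RT4 shNC and 146, 148 and 141 in RT4 shFTO. KIF23, a centralspindlin motor of cytokinesis, was 84.3, 83.4 and 78.9 CPM in T24 shNC, 71.2, 72.5 and 77.7 in T24 shFTO, 40.6, 40.4 and 40.9 in RT4 shNC and 119.9, 119.7 and 115 in RT4 shFTO. Both fell slightly in T24, by 0.16 and 0.15 on the log2 scale, and rose in RT4 by 1.41 and 1.54. Without a low-count filter the T24 falls of KIF11 (-0.12, edgeR BH-adjusted p = 0.055) and KIF23 (-0.11, edgeR BH-adjusted p = 0.0869) were lost. KIF4A, a chromosome-bound kinesin, was 35.0, 36.2 and 36.2 CPM in T24 shNC, 68.8, 63.9 and 64.5 in T24 shFTO, 50.8, 51.4 and 53.4 in RT4 shNC and 125, 123 and 125 in RT4 shFTO. It had the largest T24 rise among the kinesins (0.88) and rose by 1.26 in RT4. KIF2C, the microtubule depolymerase MCAK, was 74.8, 73.1 and 74.0 CPM in T24 shNC, 91.2, 85.7 and 90.4 in T24 shFTO, 83.4, 89.2 and 90.9 in RT4 shNC and 133, 128 and 136 in RT4 shFTO, with rises of 0.27 and 0.59. KIF14, a kinesin of cytokinesis, rose by 0.82 and 1.40. KIF4B, a near copy of KIF4A, had between 10 and 22 counts in each group.

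Spindle assembly held the largest T24 rise and the largest T24 fall of the 47 genes. TPX2, which activates Aurora A on the spindle, was 127, 126 and 117 CPM in T24 shNC, 426, 416 and 441 in T24 shFTO, 165, 171 and 171 in RT4 shNC and 318, 303 and 330.4 in RT4 shFTO. T24 shNC was lowest and T24 shFTO highest, and TPX2 rose by 1.80 in T24 (SE 0.0416, edgeR BH-adjusted p = 3.44e-16) and 0.91 in RT4. HMMR, a hyaluronan receptor that also binds spindle microtubules, was 69.6, 73.6 and 64.1 CPM in T24 shNC, 28.6, 26.0 and 26.5 in T24 shFTO, 58.9, 54.8 and 55.4 in RT4 shNC and 72.4, 75.7 and 68.9 in RT4 shFTO. The T24 shFTO libraries were the 3 lowest, below all 9 others. HMMR fell in T24 (-1.35, edgeR BH-adjusted p = 9.44e-13), the one fall of at least 2-fold, and rose in RT4 (0.36), where the rise was lost on library totals (0.09, edgeR BH-adjusted p = 0.148). ASPM, a spindle pole protein, was 169, 167 and 158 CPM in T24 shNC, 454, 434 and 434 in T24 shFTO, 55.0, 51.1 and 53.8 in RT4 shNC and 178, 172 and 174 in RT4 shFTO. T24 shFTO was highest and RT4 shNC lowest, with rises of 1.42 and 1.71. NUSAP1, which bundles spindle microtubules, was 154, 148 and 142 CPM in T24 shNC, 152, 147 and 147 in T24 shFTO, 57.6, 66.9 and 67.4 in RT4 shNC and 111, 132 and 137 in RT4 shFTO. It had a change of 0.01 in T24 (edgeR BH-adjusted p = 0.926), which turned to a called fall on library totals (-0.17, edgeR BH-adjusted p = 0.027), and rose by 0.98 in RT4. NUSAP1 exons overlap AC087721.2, a protein-coding gene on the same strand, by 1787 bases, and AC087721.2 is not named in the count table. DLGAP5, known as HURP, which stabilises spindle fibres, rose by 0.43 and 1.47.

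Central spindle and cytokinesis genes rose in both lines, 3 of 3 in each. ANLN, anillin, the scaffold of the contractile ring, was 235, 238 and 218 CPM in T24 shNC, 299, 288 and 293 in T24 shFTO, 80.3, 77.8 and 79.0 in RT4 shNC and 385, 386 and 391 in RT4 shFTO. The 4 groups did not overlap, and ANLN rose by 2.29 in RT4 and 0.35 in T24. ECT2, the exchange factor that activates RhoA at the cleavage site, was 121, 121 and 114 CPM in T24 shNC, 261, 252 and 256 in T24 shFTO, 72.2, 71.3 and 74.0 in RT4 shNC and 138, 135 and 139 in RT4 shFTO. It rose more in T24 (1.11) than in RT4 (0.92), with a difference of 0.19 (edgeR BH-adjusted p = 0.00169). PRC1, which bundles the midzone microtubules, rose by 0.37 and 2.05. PRC1 exons overlap AC068831.7, a protein-coding gene on the same strand that is not named in the count table, by 3181 bases. They overlap PRC1-AS1 on the opposite strand by 406 bases, and PRC1-AS1 had 895 counts against 59816 for PRC1. How reads in these overlaps were counted is not known, so the counts of PRC1 are uncertain.

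Genes of the APC/C and separase axis rose for 3 of 4 in T24 and 4 of 4 in RT4. CDC20, the APC/C activator held by the checkpoint, was 115, 114 and 123 CPM in T24 shNC, 139.5, 145 and 139.8 in T24 shFTO, 70.4, 76.2 and 78.2 in RT4 shNC and 272, 259 and 283 in RT4 shFTO. RT4 shFTO was highest, and CDC20 rose by 1.85 in RT4 and 0.26 in T24, where the call was lost on library totals (0.08, edgeR BH-adjusted p = 0.0643). UBE2C, the E2 enzyme that starts ubiquitin chains for the APC/C, was 33.9, 32.5 and 35.6 CPM in T24 shNC, 104, 97.0 and 104 in T24 shFTO, 68.9, 77.9 and 73.2 in RT4 shNC and 121, 138 and 135 in RT4 shFTO. T24 shNC was lowest, and UBE2C rose more in T24 (1.58) than in RT4 (0.84). PTTG1, securin, which the APC/C destroys to free separase, was 77.1, 75.4 and 72.3 CPM in T24 shNC, 57.4, 54.1 and 58.1 in T24 shFTO, 30.1, 34.5 and 33.4 in RT4 shNC and 119, 121 and 117 in RT4 shFTO. It fell in T24 (-0.41) and rose in RT4 (1.86), a difference of -2.26. ESPL1, separase, which cleaves cohesin, rose in both lines, by 1.14 in T24 and 0.84 in RT4, so securin and separase mRNA moved in opposite directions in T24 and in the same direction in RT4. PTTG2 and PTTG3P, near copies of PTTG1, had at most 6 counts in any group.

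FOXM1, the forkhead factor that drives late cell cycle genes, was 189.8, 196 and 195 CPM in T24 shNC, 226, 228 and 226 in T24 shFTO, 68.3, 81.4 and 82.3 in RT4 shNC and 167, 173 and 172 in RT4 shFTO. RT4 shNC was lowest and T24 shFTO highest. FOXM1 rose by 1.14 in RT4 (edgeR BH-adjusted p = 4.03e-12) and by 0.23 in T24 (edgeR BH-adjusted p = 0.000783), and the T24 call was lost on library totals (0.05, edgeR BH-adjusted p = 0.327). FOXM1 exons overlap ITFG2 on the opposite strand by 781 bases. MYBL2, which encodes B-MYB and is no member of the 47, was 81.0, 86.3 and 85.1 CPM in T24 shNC, 249, 253 and 249.9 in T24 shFTO, 22.4, 27.4 and 25.2 in RT4 shNC and 100.1, 97.4 and 93.0 in RT4 shFTO. It rose in both lines, by 1.57 and 1.94.

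When libraries were scaled by their totals alone, the median log2 change over the tested genes fell by 0.177 in T24 and fell by 0.266 in RT4 relative to TMM. With upper-quartile scaling it fell by 0.105 and fell by 0.106. The 47 genes' median stood 0.42 above that median in T24 and 1.12 above it in RT4 with TMM, upper-quartile and library-total scaling. A change of scaling moves the log2 changes of all genes by nearly the same amount, so this gap could hardly differ between scalings. Its constancy is no separate support. The choice of tested genes can alter the gap. Requiring 1 CPM in 3 libraries gave 0.372 in T24 and 1.15 in RT4. Testing without a low-count filter gave 0.408 in T24 and 1.03 in RT4. On library totals 29 genes rose and 13 fell in T24, and 44 rose and 0 fell in RT4, where AURKA, HMMR and NCAPG lost their calls.

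The groups of both lines were also compared directly. Each of these comparisons shares libraries with the ones above, so values are set side by side. Between the shNC groups, 36 of the 47 genes were higher in T24 and 6 lower, with a median log2 difference of 0.58, where 40.3% of all tested genes were higher and 39.7% lower, 80.1% in all. At least 2-fold, 18 were higher and 1 lower, against 26.9% and 24.2% of all tested genes. NCAPG and TTK, not called here, were called higher in T24 shNC with RLE or upper-quartile scaling, the 1 CPM filter and DESeq2. Their log2 differences were then 0.103 to 0.135 and 0.126 to 0.159. The call of CCNA2 was lost without a low-count filter (0.0968). CENPA was called lower without RT4 shNC replicate 1 (-0.19). CENPF (1.89), TOP2A (1.84), ASPM (1.63) and BIRC5 (1.59) were among those higher in T24 shNC, and UBE2C (-1.11), NDC80 (-0.70), KIF4A (-0.53), TPX2 (-0.46), KIF2C (-0.25) and BUB3 (-0.22) were the 6 lower. Between the shFTO groups, 18 were higher and 23 lower in T24, with a median of -0.02 that turned to 0.0565 with upper-quartile scaling, 0.0467 on library totals and 0.025 without a low-count filter, where 37.8% of all tested genes were higher and 39.7% lower, 77.5% in all. The extremes there were ASPM (1.34) and NCAPG (1.26), higher in T24 shFTO, and CDC25B (-3.07), KIF20A (-1.59), MKI67 (-1.52) and HMMR (-1.42), lower.

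Related genes outside the 47 were counted from lists of the same pathway, to be read against all tested genes, of which 38.6% rose and 40% fell in RT4 and 37.2% rose and 40.8% fell in T24. In RT4, 22 of 23 other spindle and cytokinesis genes rose and 1 (KIF18A, a motor that dampens chromosome oscillation) fell, with a median log2 change of 1.19. CEP55, a midbody protein, rose by 1.81, KIFC1, a minus-end kinesin, by 1.77, and GTSE1 by 1.86. In T24, 14 of the 23 rose and 5 fell (median 0.26). PSRC1 rose by 2.39, KIFC1 by 1.26 and TACC3, a spindle stabiliser, by 1.33. Of 27 other kinetochore genes, 22 rose and 3 fell in RT4 (median 0.89), and 15 rose and 9 fell in T24 (median 0.21). CENPI rose by 2.51 in RT4, KNL1, the scaffold that BUB proteins bind, rose by 1.58, and SPDL1, a dynein adaptor, rose by 1.70 in RT4 and fell in T24 (-1.49). ZWINT and CENPN fell in T24 (-0.87 and -0.89).

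Condensin and cohesin genes rose for 12 of 17 and fell for 3 in RT4 (median 0.76), and rose for 10 and fell for 5 in T24 (median 0.26). PDS5A, a cohesin regulator, fell in RT4 (-1.40) and rose in T24 (1.49), while NCAPG2 and SMC2, condensin subunits, rose by 1.34 and 1.36 in RT4. In T24, SMC1A, a cohesin ATPase, fell (-1.22) and CDCA5, sororin, rose (1.11). The APC/C subunits were mixed, with 10 of 16 up and 5 down in RT4 (median 0.35) and 10 up and 6 down in T24 (median 0.18). ANAPC4 rose in T24 (1.58) and fell in RT4 (-1.69), CDC16 rose in both (1.20 and 1.65), CDC27 rose by 1.07 in RT4, and ANAPC16 fell in T24 (-1.30).

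Of 10 genes listed under CDK1 control, not all of which act on CDK1 itself, 7 rose and 3 fell in RT4 (median 1.33). In T24, 6 rose and 3 fell (median 0.19). In RT4, PKMYT1, an inhibitory kinase of CDK1, rose by 2.20, ARPP19, which restrains the opposing phosphatase, by 1.39, and CCNF by 1.62, while WEE1, CDC25A and ENSA fell. In T24, CCNF, ARPP19 and CKS1B rose by 0.89, 0.53 and 0.66. Of 19 MuvB, MYB and E2F regulators, 8 rose (42.1%) and 9 fell (47.4%) in RT4 (median -0.06), and 9 rose (47.4%) and 7 fell (36.8%) in T24 (median 0.10), shares near those of all tested genes. TFDP1, the E2F partner DP1, and E2F7 rose by 2.81 and 2.54 in RT4, and E2F5 fell (-4.60). RB1, the retinoblastoma protein, fell in T24 (-4.28), from 59.7 ± 4.70 to 3.08 ± 0.391 CPM, and E2F2 fell there too (-2.19).

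Of 7 CDK inhibitors, 2 rose (28.6%) and 4 fell (57.1%) in each line, against 38.6% and 40% of all tested genes in RT4 and 37.2% and 40.8% in T24. CDKN2B (p15) was 104, 111 and 109 CPM in RT4 shNC and had 0 counts in the 3 RT4 shFTO libraries. CDKN2A (p16 and ARF) was 70.4 ± 4.75 CPM in RT4 shNC, with 6 counts over the 3 RT4 shFTO libraries, against 115 ± 9.36 and 145 ± 1.67 in T24 shNC and T24 shFTO. CDKN1A (p21) was 115 ± 1.41 CPM in T24 shNC and 1.83 ± 0.335 in T24 shFTO, and CDKN2C (p18) fell in T24 (-4.86) and rose in RT4 (1.81). CDKN1B (p27) rose in T24 (1.06). Of 8 G1 cyclins and CDKs, 5 rose and 3 fell in RT4 (median 0.60), and 2 rose and 4 fell in T24 (median -0.17). CCND1, cyclin D1, rose by 1.89 in RT4, with CCNE2 (1.76) and CCND3 (0.74), while CCND3 and CDK2 fell in T24 (-1.93 and -0.62) and CDK6 rose (0.89).

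DNA replication genes rose for 29 of 30 in RT4, where RFC1 fell, with a median of 1.26. CDC6, a helicase loader, rose by 2.82, RRM2, a ribonucleotide reductase subunit, by 2.46, and PCNA, the sliding clamp, by 2.29. In T24, 14 of the 30 rose and 7 fell (median 0.03), with MCM5 and RFC1 up (1.65 and 1.48) and POLA1 down (-1.51).

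**Figure D4:**
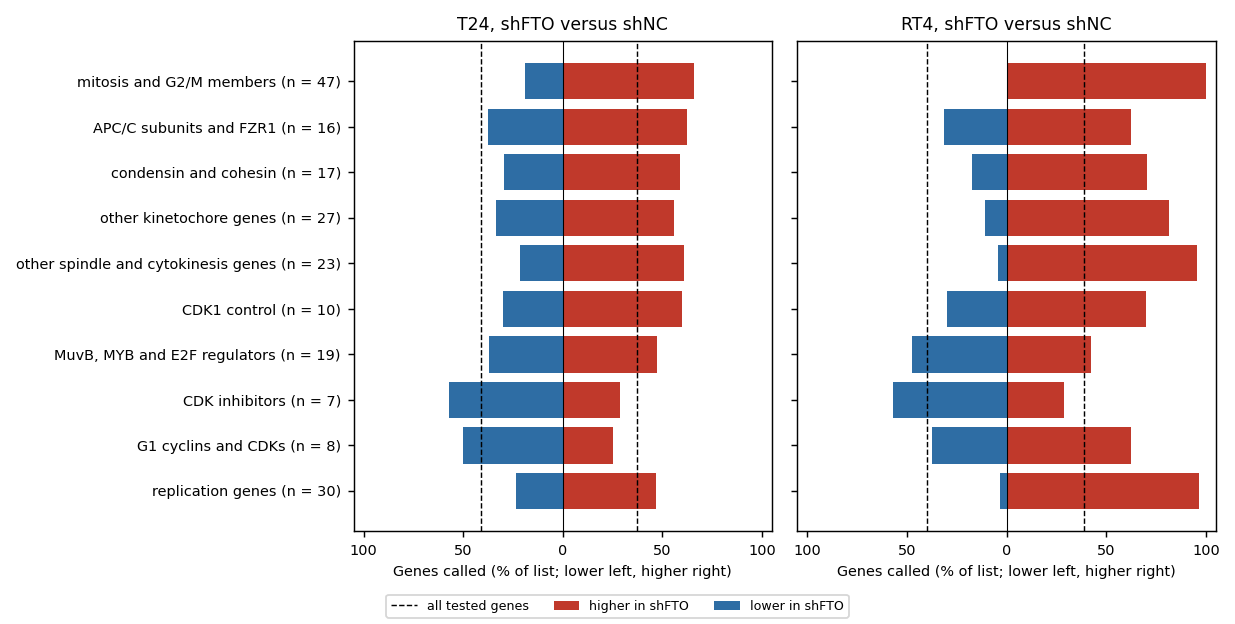
Share of genes in each list called higher (red, right) or lower (blue, left) in shFTO than in shNC, in percent, for T24 and RT4, with the number of tested genes in parentheses and dashed lines at the shares over all tested genes. In RT4 the 47 mitosis and G2/M genes were all called higher, and of 7 CDK inhibitors 4 were called lower and 2 higher in each line.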

How the data were processed

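Total RNA was extracted with Trizol, poly(A) libraries were made with an NEBNext kit and sequenced as 150 bp pairs, per the labels' protocols. The deposited values are whole-number counts of reads per gene. Per the submitters' processing notes, fastp 0.20.0, STAR 2.7.9a and featureCounts 2.0 were used, and mm39, GRCh38 and hg38 are named with no role. Annotation release and strand mode were not given in the sources used here.

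All 12 libraries were fitted with edgeR 4.0.16 (R 4.3.3, limma 3.58.1), using TMM scaling, filterByExpr by group, a robust quasi-likelihood fit with a mean per group and no block, and Benjamini-Hochberg adjustment over the tested genes. All p-values are two-sided. The test of a difference between lines is the contrast of the T24 change and the RT4 change. Labelled lines and treatments gave the groups. The labels' batch number equals the replicate number and so pairs libraries. Same-numbered libraries' deviations from their group means correlated at 0.101, -0.036 and 0.019 in T24 and -0.098, -0.022 and -0.02 in RT4, over 10876 genes. No pair of replicates agreed within sampling noise.

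The 47 genes, the pathway lists and the marker lists were chosen with earlier results of these data known. Members given per library are 8 chosen by name, the largest and smallest absolute change per role in each line, and those called in opposite directions. Pathway examples are the 3 smallest p-values per list and line, of which MYBL2 and CDKN2B are also given per library, a choice made after their values were seen. Other pathway genes (KIF18A, WEE1, CDC25A and ENSA) were chosen after their values were seen. Promoters came from RefSeq on GRCh38.p14 and exon overlaps from GENCODE. Alternatives were RLE, upper-quartile and library-total scaling, other low-count filters, DESeq2 1.42.0, only the groups compared, the batch block, a 2-fold threshold and leaving out each library.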

Additional observations from a re-analysis of the deposited data

Results flagged for a closer look

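The change in shFTO relative to shNC differed between the labelled lines for 44 of the 47 genes by the edgeR test of that difference, with a BH-adjusted p under 0.05. At this threshold 75% of all tested genes differed too. Values are log2 changes in T24 minus those in RT4, so a negative value means a smaller rise or a fall in T24.

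The difference was -2.49 for MKI67, -1.85 for TOP2A, 1.19 for NCAPG and -0.50 for SMC4 among proliferation and chromosome structure genes. For CDK1, the cyclins and the CDC25 phosphatases it was -1.17 for CDK1, -1.14 for CCNB1, -0.73 for CCNB2, 0.28 for CCNA2, -3.04 for CDC25B and -0.40 for CDC25C. The mitotic kinases had values of -1.04 for PLK1, -0.66 for PLK4 and -0.58 for AURKA. Chromosomal passenger genes had values of -2.41 for BIRC5, -0.68 for INCENP and -0.67 for CDCA8. Spindle checkpoint genes lay close together, at -0.38 for BUB1, -0.58 for BUB1B, -0.63 for BUB3, -0.38 for MAD2L1 and -0.49 for TTK.

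At the centromere and kinetochore the difference was -0.60 for CENPA, -1.52 for CENPF, -0.49 for NDC80 and -0.78 for NUF2. Kinesins ranged widely, at -1.57 for KIF11, -0.58 for KIF14, -2.81 for KIF20A, -1.69 for KIF23, -0.32 for KIF2C and -0.38 for KIF4A. Spindle assembly genes stood at 0.89 for TPX2, -0.97 for NUSAP1, -1.71 for HMMR, -1.04 for DLGAP5 and -0.29 for ASPM. The cytokinesis genes stood at -1.69 for PRC1, -1.94 for ANLN and 0.19 for ECT2. The APC/C and separase axis held -1.59 for CDC20, 0.74 for UBE2C, -2.26 for PTTG1 and 0.30 for ESPL1, and FOXM1 had -0.91. Without a low-count filter the differences of ASPM (-0.157), CDC25C (-0.26) and KIF2C (-0.184) were no longer called, and that of CENPE was (0.206).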

How the results depend on the processing

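With upper-quartile scaling and on library totals, the median log2 change of the 47 genes was 0.261 and 0.187 in T24 and 1.01 and 0.852 in RT4. Without a low-count filter it was 1.03 in RT4, and the T24 minus RT4 difference had a median of -0.522. Between the shNC groups the median was 0.654 with upper-quartile scaling and 0.49 without a filter. Between the shFTO groups it turned positive, to 0.0565 with upper-quartile scaling, 0.0467 on library totals and 0.025 without a filter. NUSAP1 turned in T24 on library totals (-0.171). The cause of these moves was not tested.

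A threshold of at least 2-fold left 10 genes in T24 (9 up and 1 down), 26 in RT4 (26 up and 0 down), 18 for the difference between the lines (1 up and 17 down), 19 between the shNC groups (18 higher and 1 lower in T24) and 8 between the shFTO groups (2 higher and 6 lower). Of all tested genes, 25.9% were up and 29.4% down at least 2-fold for the difference, and 23.4% were higher and 26.3% lower between the shFTO groups. The batch number as a replicate block left 31 genes up and 9 down in T24, 47 up in RT4, and 6 up and 38 down for the difference. It changed no call among the 47 genes. Without each library in turn, the genes called ranged from 40 to 42 in T24, stayed at 47 in RT4, and ranged from 44 to 45 for the difference, 42 to 43 between the shNC groups and 41 to 42 between the shFTO groups. The medians ranged from 0.366 to 0.42, 1.06 to 1.15, -0.68 to -0.604, 0.554 to 0.587 and -0.0625 to -0.0131 in the same order. Replicates of a group differed by 5.47 to 16.3 times the chi-square expected from counting noise, at totals of at least 31291047 counts per library.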
